A study of Mus musculus with 4 samples.

Results

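The G2/M and mitosis genes described here are 43 genes that carry cells from G2 phase through mitosis, chosen by name among the 30872 gene symbols of a whole-genome bead array. A member counted as detected where at least 1 of its probes had a detection p-value below 0.01, the array's own call against negative control beads, on at least 1 of 4 arrays. By that rule 28 of the 43 members were detected, among 12616 genes detected in all, and 24 of the 28 were detected on every array. Cdk1 appears on the array under its older symbol, Cdc2a, which is used below for its measurements.

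RNA came from mouse embryonic fibroblasts (MEFs) of strain FVB;129, in which the endogenous Rb gene is flanked by LoxP sites. Parental MEFs were mock-treated and keep Rb, Rb-deleted MEFs received TAT-Cre, a cell-permeable recombinase that removes Rb, and both received medium alone in place of virus. WT Rb-HA MEFs, like ΔCdk Rb-HA MEFs, received TAT-Cre and a retrovirus, which expressed wild-type Rb in the former and in the latter a phospho-mutant Rb that Cdks cannot phosphorylate, at the time of deletion. Each treatment was given 2 times for 1 h, 3 h apart, and 1 array was run per group. The study's text adds that cells were released from contact inhibition and treated with doxorubicin, a topoisomerase II inhibitor that damages DNA, whereas the array labels do not mention it. TAT-Cre acts on a culture as a whole, so each group is a treated population and not a clone. Comparisons of a retrovirus-infected array with an uninfected one differ in infection as well as in Rb, and these cannot be told apart. Only ΔCdk Rb-HA against WT Rb-HA is matched for both TAT-Cre and infection. With 1 array per group no difference has a replicate check, so no test was made.

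Entry into mitosis is driven by Cdk1 bound to cyclin B, which Cdc25 phosphatases switch on and which acts with the Plk1 and Aurora kinases. The spindle checkpoint then holds back the anaphase-promoting complex (APC/C) and its activator Cdc20 until every kinetochore is attached, after which separase (Espl1) is released to cut cohesin. Kinesin motors build the spindle, the chromosomal passenger complex corrects attachments, and the midzone and contractile ring divide the cell. Transcription of these genes peaks in G2 and mitosis, later in the cycle than that of the G1/S genes that E2F controls. Many of their promoters hold a cell cycle genes homology region (CHR) and CCAAT boxes, which are read by the DREAM and B-Myb complexes and by NF-Y. Rb itself is known chiefly for repression of E2F at G1/S genes.

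These promoter elements were looked for as plain letters in RefSeq promoter windows of assembly GRCm38.p6, which hold 250 bases before and 50 bases after each transcription start. The words searched, on both strands, were TTTGAA and TTCGAA for the CHR, CCAAT for the CCAAT box, and TTTCCCGC, TTTCGCGC, TTTGGCGC and TTTGCCGC for E2F. None of these words lies within another, but matches can overlap. Windows were found for 36 of the 43 members, with 39 windows in all. CHR letters were in 30 of the 39 windows (76.9%), against 59.1% of 66 windows of other mitotic genes, 15.2% of 46 windows of G1/S genes and 19.2% of all 32851 windows. CCAAT was in 82.1%, 63.6%, 56.5% and 37.4% of windows, in the same order. E2F letters were in 1 member window (2.56%), that of Cdk1, against 12.1% of other mitotic, 34.8% of G1/S and 2.26% of all windows. Of the 36 members with a window, 25 had CHR letters and CCAAT in the same window and 5 had neither. A match is a description of the sequence and not a measured binding site.

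**Figure D1:**
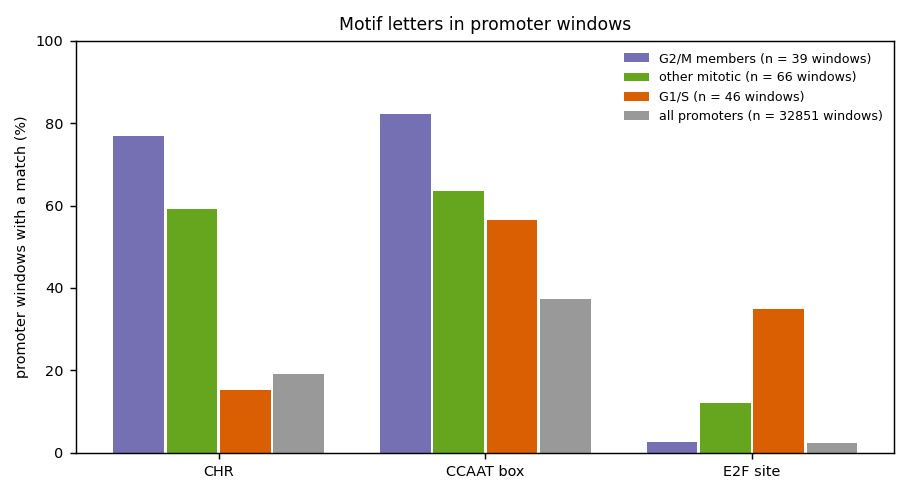
Share of RefSeq promoter windows (GRCm38.p6) with at least 1 match to the CHR, CCAAT or E2F letters, in percent on the vertical axis, for members, other mitotic genes, G1/S genes and all promoters. CHR letters were in 76.9% of member windows and 19.2% of all windows, and E2F letters in 2.56% of member windows and 34.8% of G1/S windows.

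The 250 bases before the start of 4 members and 1 G1/S gene are shown because these genes recur in the results below: Cdk1 and Birc5 passed the study's fold filter, Cdc20 and Kif22 stand for the APC/C and the kinesins, and the G1/S gene Mcm6 had one of the largest ratios of that list. Each is written 5′ to 3′ on the gene's strand, with the letters of any CHR, CCAAT or E2F match in capitals. Sequences and positions are those of RefSeq, GRCm38.p6.
Cdk1 (array symbol Cdc2a), chr10:69352913-69353162, minus strand: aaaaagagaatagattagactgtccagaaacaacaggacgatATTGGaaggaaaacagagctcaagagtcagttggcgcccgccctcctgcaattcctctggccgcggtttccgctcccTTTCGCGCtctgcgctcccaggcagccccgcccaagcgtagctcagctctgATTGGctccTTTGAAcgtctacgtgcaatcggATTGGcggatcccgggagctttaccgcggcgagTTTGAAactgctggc
Cdc20, chr4:118437344-118437593, minus strand: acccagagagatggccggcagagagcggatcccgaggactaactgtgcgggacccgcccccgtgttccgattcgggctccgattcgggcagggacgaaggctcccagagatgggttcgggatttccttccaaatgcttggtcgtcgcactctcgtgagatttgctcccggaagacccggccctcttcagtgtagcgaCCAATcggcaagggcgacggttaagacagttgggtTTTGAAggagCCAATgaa
Kif22, chr7:127042421-127042670, minus strand: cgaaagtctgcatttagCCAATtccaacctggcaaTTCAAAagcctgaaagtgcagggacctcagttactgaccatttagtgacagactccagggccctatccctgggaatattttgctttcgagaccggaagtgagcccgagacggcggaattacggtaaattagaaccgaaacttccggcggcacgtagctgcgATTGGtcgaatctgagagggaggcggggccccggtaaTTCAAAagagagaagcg
Birc5, chr11:117848987-117849236, plus strand: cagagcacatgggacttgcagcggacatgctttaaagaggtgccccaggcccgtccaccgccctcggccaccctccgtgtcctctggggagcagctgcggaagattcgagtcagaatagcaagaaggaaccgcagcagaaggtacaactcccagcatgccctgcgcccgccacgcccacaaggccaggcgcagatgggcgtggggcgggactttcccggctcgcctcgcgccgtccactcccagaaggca
Mcm6, chr1:128359706-128359955, minus strand: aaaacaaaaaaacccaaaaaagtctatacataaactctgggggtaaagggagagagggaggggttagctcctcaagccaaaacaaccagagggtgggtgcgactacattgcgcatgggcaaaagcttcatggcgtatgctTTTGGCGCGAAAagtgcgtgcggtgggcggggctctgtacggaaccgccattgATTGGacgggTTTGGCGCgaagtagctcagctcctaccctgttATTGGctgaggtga

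Cdk1 had 2 CHR matches, starting at -71 and -15 from the first transcribed base, 3 CCAAT matches and the E2F match at -131. In Cdc20 the CHR letters began at -18, between CCAAT boxes at -53 and -8. Kif22 carried the CHR letters on the opposite strand, written TTCAAA, at -215 and -17. No match to any of the words was found in the window of Birc5. The window of Mcm6 had E2F letters at -110, -106 and -47, the first 2 overlapping, CCAAT letters at -57 and -14, and no CHR letters. Mcm6 does not stand for all G1/S genes with large ratios. Mcm3 had E2F letters at 19 and 38, but Ung, with the largest ratio of that list, had no match to any of the words.

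Deposited values were bead-averaged intensities. Mean intensity over all probes was between 336 and 346, each array had a median of 44 beads per probe, and 25 to 27 members were detected per array. Probes of Rb1, the deleted gene, had log2 ratios to parental between -1.88 and -1.31 on the TAT-Cre arrays, also where Rb was put back by retrovirus. Whether these probes match the retroviral transcript is not given in the sources used here. Fibroblast markers were detected for 10 of 10 genes, with summed intensities between 58455 and 65534 on the 4 arrays. Of 8 leukocyte markers 6 were detected, each lower on every TAT-Cre array than on the parental array, with a summed intensity of 8399.7 on the parental array and 3964 to 4889.6 on the others. The defining leukocyte marker Ptprc was not detected on any array. Epithelial markers were detected for 3 of 4 genes, with summed intensities between 206 and 249, and endothelial markers for 0 of 4. The part of these other cells in the results below was not tested.

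Ratios below are log2 ratios of background-corrected, quantile-normalized intensities. Each is given with its bead standard error, which covers the spread over beads within the 2 arrays and not the spread between cultures. Its median over the members was between 0.08 and 0.09. Counts use 2 limits. One is the study's 1.6-fold filter, a log2 ratio of 0.68, and the other is a ratio beyond 2 bead standard errors. In bulk RNA, fewer cells in G2 or mitosis and less of a transcript per cell cannot be told apart.

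Members were mostly a little higher in Rb-deleted than in parental MEFs. Their median log2 ratio was 0.19, against 0.02 over all genes analysed, with a range from -0.28 for Tpx2 to 0.60 for Espl1. Of the 28, 23 were above 0. None passed 1.6-fold in either direction, while 2.14% of all genes did so upward and 2.98% downward. Beyond 2 bead standard errors 13 were higher and 1 lower (all genes: 26.6% higher, 24.6% lower). Nearest below the 1.6-fold filter were Espl1, at 0.60 with a parental signal not above background, and Cdc2a, at 0.52.

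In WT Rb-HA MEFs the members lay near their parental level and below their Rb-deleted level. Against parental the median was -0.04, with a range from -0.51 to 0.37 and 11 of 28 above 0. Here 0 members passed 1.6-fold (all genes: 0.888% higher, 2.46% lower), and 3 were higher and 5 lower beyond 2 bead standard errors (23.6% and 23.2%). Against Rb-deleted MEFs the median was -0.28 (all genes -0.02), 25 of 28 members were below 0, and 19 were lower and 0 higher beyond 2 bead standard errors, where 18.8% of all genes were lower and 15% higher. One member, Espl1, passed 1.6-fold downward (0.484% of all genes, and 0.539% upward), with a signal on the WT Rb-HA array that was not above background.

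In ΔCdk Rb-HA MEFs the members were about as high as in Rb-deleted MEFs. Against parental the median was 0.23 and 25 of 28 were above 0. Birc5 and Cdc2a passed 1.6-fold upward and 0 members passed it downward (all genes: 2.58% and 3.3%). Beyond 2 bead standard errors 15 were higher and 1 lower (26.1% and 27.2%). Against Rb-deleted MEFs the median was 0.04, with 17 of 28 above 0 and none past 1.6-fold (2.31% of all genes higher, 1.95% lower). There 10 members were higher and 4 lower beyond 2 bead standard errors, against 21.2% and 27.1% of all genes.

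The comparison matched for infection, ΔCdk Rb-HA against WT Rb-HA, had the largest member median of the 6, at 0.34, with a range from -0.17 to 0.59. All genes had a median of -0.01. Of the 28 members 24 were above 0, and 21 were higher and 0 lower beyond 2 bead standard errors, where 17.6% of all genes were higher and 18.9% lower. No member passed 1.6-fold at its brightest probe (0.84% of all genes higher, 1.01% lower), so at these probes a shift of most members came without a large difference in any one. Another Kif4 probe, detected on all arrays, was at 0.80, where the brightest was at 0.35. The highest normalized value of a member fell on the ΔCdk Rb-HA array for 16 genes, on the Rb-deleted array for 9, on the parental array for 2 and on the WT Rb-HA array for 1. The lowest value fell on the WT Rb-HA array for 16 and on the parental array for 9.

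Detection on 1 array was enough for a member to enter, so a gene near background could enter through the array on which it was brightest. A member that entered kept its ratio in every median and count, also where neither array of a pair detected it. Ube2c, at -0.06 in Rb-deleted against parental MEFs, is such a case. Over the 24 members detected on all 4 arrays the medians were 0.19 in Rb-deleted and 0.26 in ΔCdk Rb-HA MEFs against parental, -0.25 for WT Rb-HA against Rb-deleted, and 0.35 for ΔCdk Rb-HA against WT Rb-HA.

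**Figure D2:**
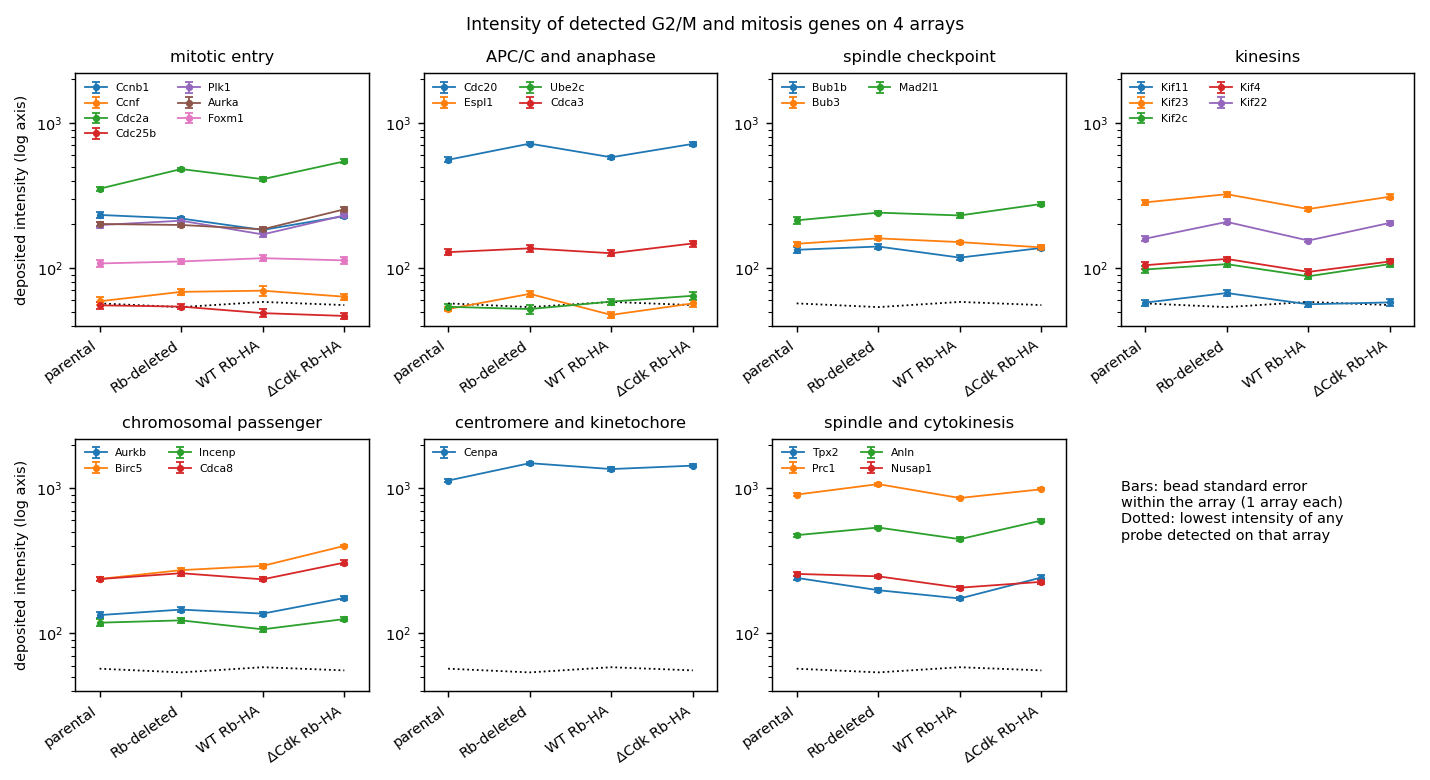
Deposited intensity (log axis) of each detected member on the 4 arrays, by sub-group, with bars for the bead standard error within the array and lines that join the values of 1 gene. Most members dip on the WT Rb-HA array, Cdc20 from 720.0 to 579.8 and Kif22 from 208 to 155, while Espl1, Ube2c, Kif11 and Cdc25b lie near the dotted line, the lowest intensity of any detected probe.

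Of the mitotic entry genes 7 of 12 were detected, and they differed among themselves. Cdc2a, the mitotic kinase, had intensities of 352 on the parental, 481 on the Rb-deleted, 409.7 on the WT Rb-HA and 543 on the ΔCdk Rb-HA array. All 3 TAT-Cre arrays were above parental, with log2 ratios of 0.52 (bead standard error 0.06), 0.28 (0.07) and 0.76 (0.07), and the ΔCdk Rb-HA array was the highest. For ΔCdk Rb-HA against WT Rb-HA its ratio was 0.48 (0.06). Its cyclin partner Ccnb1 did not share the excess over parental. Ccnb1 had intensities of 232, 219, 183 and 228 in the same order of arrays, with the WT Rb-HA array lowest, at -0.36 (0.09) against parental and -0.30 (0.08) against Rb-deleted MEFs. Its other probe, of like brightness, had 247, 192, 157 and 212, so that there the Rb-deleted array was lower than parental too, at -0.37, and the WT Rb-HA array was at -0.71. The mean of the 2 probes was -0.21 in Rb-deleted and -0.54 in WT Rb-HA MEFs against parental.

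The kinases Plk1, which triggers Cdc25 and later cytokinesis, and Aurka, which matures centrosomes, were highest with ΔCdk Rb-HA. Plk1 had intensities of 198, 212, 170.4 and 230.5, and Aurka of 201, 198, 185 and 254. Neither was beyond 2 bead standard errors in Rb-deleted against parental MEFs, at 0.14 (0.09) and 0.01 (0.08). Against WT Rb-HA MEFs both were higher with ΔCdk Rb-HA, Plk1 at 0.54 (0.07) and Aurka at 0.56 (0.08). Foxm1, a transcription factor of the G2/M program, stayed between 108 and 117 on the 4 arrays, with no ratio beyond 2 bead standard errors. Ccnf, an F-box protein, lay between 59.0 and 69.8, near background. Cdc25b, an activating phosphatase of Cdk1, was detected on the Rb-deleted array alone, at a detection p of 0.00855 and an intensity of 54.2, below the 55.3 of the parental array, where it was not called. Over the sub-group the median was 0.08 in Rb-deleted and 0.17 in ΔCdk Rb-HA MEFs against parental. In ΔCdk Rb-HA against WT Rb-HA MEFs 4 of 7 were higher beyond 2 bead standard errors (all genes: 17.6%).

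The APC/C and anaphase genes were detected for 4 of 5 members. Cdc20 had intensities of 557 on the parental, 720.0 on the Rb-deleted, 579.8 on the WT Rb-HA and 717 on the ΔCdk Rb-HA array. Rb-deleted and ΔCdk Rb-HA arrays were high and close to each other, and the other pair was low. Its ratio to parental was 0.44 (0.07), 0.11 (0.07) and 0.47 (0.07) on the 3 TAT-Cre arrays, and the WT Rb-HA array was below the Rb-deleted one by a log2 difference of -0.32 (0.05). Espl1, the protease that cleaves cohesin, was detected only on the Rb-deleted and ΔCdk Rb-HA arrays. Its intensities were 52.2, 66.3, 47.5 and 57.0, close to background throughout. On the background-corrected, normalized scale, Rb-deleted MEFs were at least 1.31-fold higher than parental and WT Rb-HA MEFs at least 1.30-fold lower than Rb-deleted. Each bound divides the normalized value on the bright array by that of the probe on the dim array, or by the lowest detected value there if that is higher. Here and below a bound leaves out bead error, so it is not a lower limit once that error is counted. Folds on this scale are wider than between the deposited intensities, which still hold background, so bounds for genes this dim depend on that correction. Measured log2 ratios were 0.60 (0.14) and -0.87 (0.14), the latter being the member ratio past 1.6-fold in that comparison, and 0.36 and -0.53 without background correction.

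Ube2c, the E2 enzyme that primes APC/C substrates, was detected only on the 2 arrays from retrovirus-infected MEFs, with intensities of 54.0, 52.1, 58.7 and 64.4. On the normalized scale, ΔCdk Rb-HA MEFs were at least 1.23-fold higher than parental and at least 1.33-fold higher than Rb-deleted MEFs, with measured log2 ratios of 0.43 (0.18) and 0.49 (0.24), or 0.25 and 0.29 without background correction. Cdca3, which promotes destruction of the Cdk1 inhibitor Wee1, had ratios to parental of 0.14 (0.12), -0.02 (0.11) and 0.29 (0.11). All 4 genes of the sub-group were above 0 for ΔCdk Rb-HA against parental and against WT Rb-HA. Espl1 and Ube2c entered partly through their detection on the ΔCdk Rb-HA array, which favours that sign. Cdc20 and Cdca3, detected on all 4 arrays, had 0.47 (0.07) and 0.29 (0.11) against parental. Against WT Rb-HA they had 0.36 (0.05) and 0.30 (0.11).

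Spindle checkpoint genes were detected for 3 of 5 members. In WT Rb-HA against Rb-deleted MEFs their median was -0.11 at the brightest probes, the smallest of the sub-groups with more than 1 detected gene. Mad2l1, which binds and inhibits Cdc20, had intensities of 213, 241, 230.3 and 276, lowest on the parental array and highest with ΔCdk Rb-HA. Its ratio to parental was 0.24 (0.10), 0.17 (0.11) and 0.48 (0.10), and to WT Rb-HA MEFs 0.32 (0.08) with ΔCdk Rb-HA. The other Mad2l1 probe, of like brightness, had 188, 204, 179 and 241, so there the WT Rb-HA array was lowest. At that probe WT Rb-HA MEFs were at -0.06 against parental and -0.22 against Rb-deleted MEFs, where the brightest probe had -0.07 for the latter. Bub1b, the BubR1 subunit of the inhibitor, had intensities of 134, 141, 118 and 137, with only the WT Rb-HA array lower, by a log2 difference of -0.33 (0.10) from Rb-deleted MEFs. Bub3, their WD-repeat partner, ran the other way at the end, with intensities of 147, 160.1, 151 and 139. With ΔCdk Rb-HA it was the lowest of the 4, at -0.23 (0.08) against Rb-deleted MEFs and -0.11 (0.07) against WT Rb-HA MEFs. Against Rb-deleted MEFs the checkpoint genes thus differed in direction with ΔCdk Rb-HA, where Mad2l1 was at 0.25 (0.06).

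Kinesins were detected for 5 of 6 members, and each had its lowest value with WT Rb-HA. At their brightest probes all 5 were above 0 in Rb-deleted against parental MEFs (median 0.25). All 5 were below 0 in WT Rb-HA against parental (median -0.11, none beyond 2 bead standard errors). All 5 were lower beyond 2 bead standard errors in WT Rb-HA than in Rb-deleted MEFs (median -0.42, range -0.50 to -0.36), as were 18.8% of all genes. With ΔCdk Rb-HA against Rb-deleted MEFs the median was -0.02. Kif22, a chromokinesin that pushes chromosome arms, had intensities of 159 on the parental, 208 on the Rb-deleted, 155 on the WT Rb-HA and 205 on the ΔCdk Rb-HA array. Here the parental and WT Rb-HA arrays were low and the other pair high. Its ratio was 0.46 (0.09) in Rb-deleted and 0.47 (0.07) in ΔCdk Rb-HA MEFs against parental, and -0.50 (0.08) for WT Rb-HA against Rb-deleted.

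Kif23, a motor of the centralspindlin complex at the midzone, had intensities of 283, 323, 255 and 310.1, again high on the Rb-deleted and ΔCdk Rb-HA arrays. Its other probe did not share this, with 123, 110, 103 and 112. There the parental array was highest, and the ratio of Rb-deleted to parental MEFs was -0.19. Kif4, the chromokinesin that carries Prc1 to the midzone, lay between 94.0 and 115, and Kif2c, which depolymerizes microtubules at centromeres, between 87.7 and 106, each lowest with WT Rb-HA. Kif11 (Eg5), which separates the spindle poles, was near background at 57.8, 67.2, 56.3 and 57.9 and fell short of detection with WT Rb-HA. There its normalized value was at least 1.32-fold lower than in Rb-deleted MEFs, with a measured log2 ratio of -0.50 (0.15), or -0.30 without background correction. Kif11 was also the one kinesin lower beyond 2 bead standard errors in ΔCdk Rb-HA against Rb-deleted MEFs, at -0.37 (0.16).

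All 4 members of the chromosomal passenger complex were detected, on every array, and were highest with ΔCdk Rb-HA. Birc5 (survivin), which brings the complex to the centromere, had intensities of 237 on the parental, 273 on the Rb-deleted, 292 on the WT Rb-HA and 400.4 on the ΔCdk Rb-HA array. That last value stood well above the others, with log2 ratios of 0.91 (0.05) against parental, 0.65 (0.06) against Rb-deleted and 0.54 (0.06) against WT Rb-HA MEFs. Birc5 was also the one member that was highest among the ratios of both retrovirus arrays to parental, with 0.37 (0.07) in WT Rb-HA MEFs. Its other 2 probes gave 0.68 and 1.00 for ΔCdk Rb-HA against parental.

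Aurkb, the kinase of the complex, had intensities of 134, 146, 137 and 175, and Cdca8 (borealin), which forms the targeting module with Birc5, of 237, 259.6, 236 and 307. In both the ΔCdk Rb-HA array was high and the other 3 closer to each other at these probes. The other Cdca8 probe had 80.5, 93.4, 99.9 and 124.7, with ratios to parental of 0.33, 0.41 and 0.86, so there the WT Rb-HA array was above parental too. Aurkb was at 0.52 (0.09) and Cdca8 at 0.48 (0.09) in ΔCdk Rb-HA against parental MEFs, and both were higher than in Rb-deleted MEFs, at 0.34 (0.08) and 0.30 (0.09). Incenp, the scaffold, differed less, with intensities between 107 and 125 and a ratio of 0.33 (0.11) for ΔCdk Rb-HA against WT Rb-HA. The sub-group's median was 0.19 in Rb-deleted, 0.04 in WT Rb-HA and 0.50 in ΔCdk Rb-HA MEFs against parental. In ΔCdk Rb-HA against WT Rb-HA MEFs all 4 were higher beyond 2 bead standard errors (all genes: 17.6%). Its median for ΔCdk Rb-HA against Rb-deleted MEFs, 0.32, was the highest of the 7 sub-groups, whose other medians there lay between -0.03 and 0.09.

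**Figure D3:**
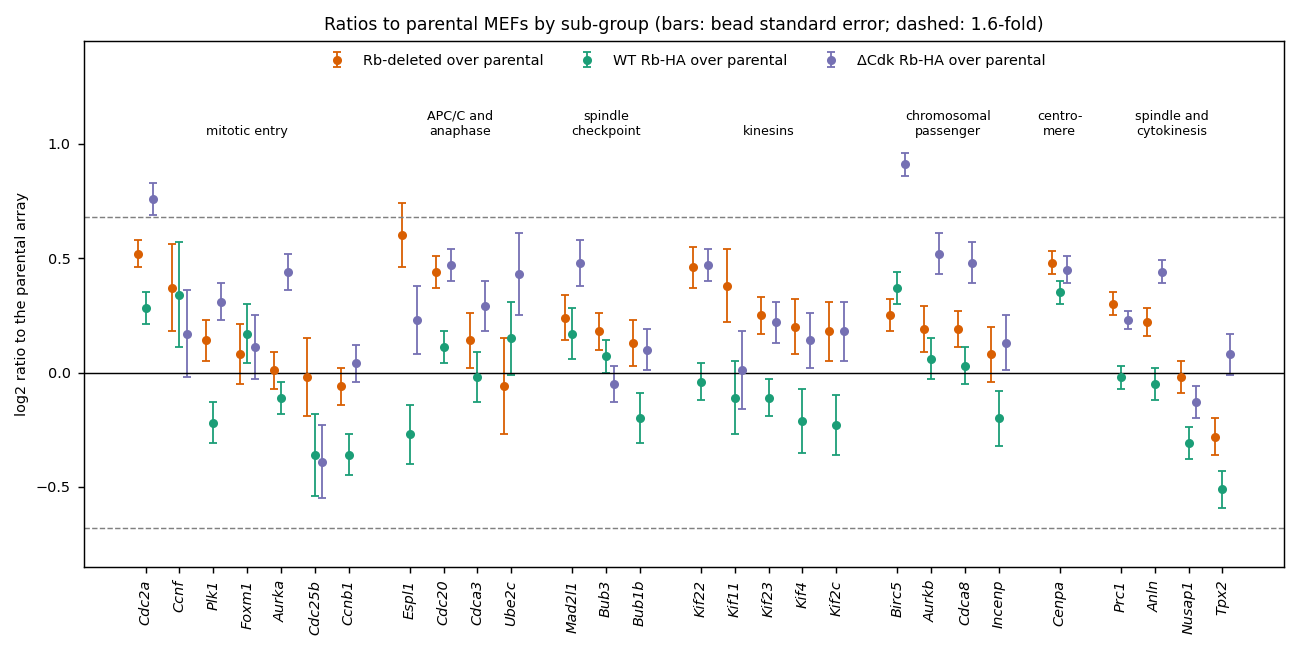
Log2 ratio to the parental array of each detected member, by sub-group, in Rb-deleted MEFs and those with WT Rb-HA or ΔCdk Rb-HA, with bars for the bead standard error and dashed lines at 1.6-fold. Only Birc5 (0.91) and Cdc2a (0.76) pass the line, both on the ΔCdk Rb-HA array, and for most members the WT Rb-HA point is the lowest of the 3.

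Of the centromere and kinetochore genes only Cenpa, the histone H3 variant of centromeric chromatin, was detected, out of 3 members. Its intensities were 1129, 1488, 1355 and 1431. All 3 TAT-Cre arrays were above parental, at 0.48 (0.05), 0.35 (0.05) and 0.45 (0.06), so unlike the kinesins its WT Rb-HA value did not lie near the parental one. In ΔCdk Rb-HA against WT Rb-HA MEFs it was at 0.10 (0.06), within 2 bead standard errors.

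Spindle and cytokinesis genes were detected for 4 of 8 members. Prc1, which bundles midzone microtubules, had intensities of 904, 1067, 856 and 984, with ratios to parental of 0.30 (0.05), -0.02 (0.05) and 0.23 (0.04). Anln (anillin), a scaffold of the contractile ring, had 475, 536, 445 and 599 and was highest with ΔCdk Rb-HA, at 0.44 (0.05) against parental. Tpx2, which activates Aurka on the spindle, had 241, 198, 174 and 242. The parental and ΔCdk Rb-HA arrays were high and the other pair low, so Tpx2 was the one member lower beyond 2 bead standard errors in Rb-deleted than in parental MEFs, at -0.28 (0.08), and had the largest member ratio of ΔCdk Rb-HA against WT Rb-HA, 0.59 (0.08). Nusap1, a microtubule bundler at chromosomes, had 257, 247, 206 and 226, highest on the parental array. Although they differed against parental, all 4 were lower in WT Rb-HA than in Rb-deleted MEFs, with a median of -0.28, and higher in ΔCdk Rb-HA against WT Rb-HA MEFs, with a median of 0.37, in each case beyond 2 bead standard errors. Of all genes 18.8% were lower in the former comparison and 17.6% higher in the latter by that limit.

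The 15 members with no detected probe were Ccna2, Ccnb2, Cdc25c, Nek2 and Cks2 among the entry genes, Bub1 and Ttk of the spindle checkpoint, the kinesin Kif20a, the kinetochore genes Cenpe and Cenpf, securin (Pttg1), and Ect2, Hmmr, Tacc3 and Racgap1 of the spindle and cytokinesis. Their 26 probes had intensities between 29.8 and 56.4, with a median of 39.96, and give no ratio. Tacc3 lay just outside the limit, with a lowest detection p of 0.0118, and Cdc25c next, with 0.0192. Inside it Cdc25b was the member detected on the fewest arrays. These probes were not above background at this sensitivity, which does not show that the transcripts were absent.

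Only 9 members had 2 or more probes detected on all arrays, 21 probes in all. The range of ratios between probes of 1 gene had a median between 0.18 and 0.32 over the 6 comparisons, which is of the size of the member medians, and in each comparison 2 to 4 of the 9 genes had probes of opposite sign. For Cdc20 all 4 probes were above 0 in Rb-deleted against parental MEFs, from 0.14 to 0.58. Kif23 had 0.25 at its brightest probe and -0.19 at its other, and Bub1b had -0.33 and 0.23 for WT Rb-HA against Rb-deleted MEFs. For ΔCdk Rb-HA against WT Rb-HA, probes of opposite sign were those of 2 genes, Bub1b and Foxm1. Past 1.6-fold at another probe but not at the brightest were Kif4 in that comparison (0.80) and Cdca8 in ΔCdk Rb-HA against parental MEFs (0.86). The same held for Ccnb1 in WT Rb-HA against parental MEFs (-0.71).

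Other mitotic genes were a list of 71 genes outside the members, of which 51 were detected. Against parental their medians were close to those of the members: 0.19 in Rb-deleted, -0.04 in WT Rb-HA and 0.20 in ΔCdk Rb-HA MEFs. Their median was -0.21 for WT Rb-HA against Rb-deleted (members -0.28). For ΔCdk Rb-HA against WT Rb-HA it was 0.22, smaller than the 0.34 of the members. In Rb-deleted against parental MEFs 4 of the 51 passed 1.6-fold upward and 0 downward (all genes: 2.14% and 2.98%). Ratios there were largest for the centromere protein Cenpk, at 0.94 (0.14), the lamin Lmnb1, at 0.91 (0.06), and the Cdk1-inhibiting kinase Wee1, at 0.79 (0.17). They were smallest for the APC/C subunit Cdc27, at -0.55 (0.12), and the midbody protein Cep55, at -0.53 (0.14). Cenpk and Wee1 were not detected on the parental array.

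The G1/S genes, 41 detected of 48, had a median of 1.05 in Rb-deleted against parental MEFs. There 35 passed 1.6-fold upward and no member did (all genes: 2.14%). Largest were the uracil glycosylase Ung, at 2.46 (0.11), and the MCM helicase subunits Mcm3, at 2.32 (0.11), and Mcm6, at 2.25 (0.11). Among the smallest was the sliding clamp Pcna, at 0.30 (0.11). E2f2 ranked below it, at -0.11 (0.19), but was not detected on either of these arrays. That value is not a measured difference, although it enters the median of the list. The G1/S median was 0.41 in WT Rb-HA and 0.79 in ΔCdk Rb-HA MEFs against parental, and -0.71 for WT Rb-HA against Rb-deleted. For ΔCdk Rb-HA against WT Rb-HA the list medians were 0.36 for G1/S genes, 0.34 for the members and 0.22 for other mitotic genes. Against Rb-deleted MEFs the ΔCdk Rb-HA array had a median of -0.31 for G1/S genes and 0.04 for the members. No test of the difference between lists was made, since each rests on the same single arrays. The lists were also chosen with earlier results of these data known.

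**Figure D4:**
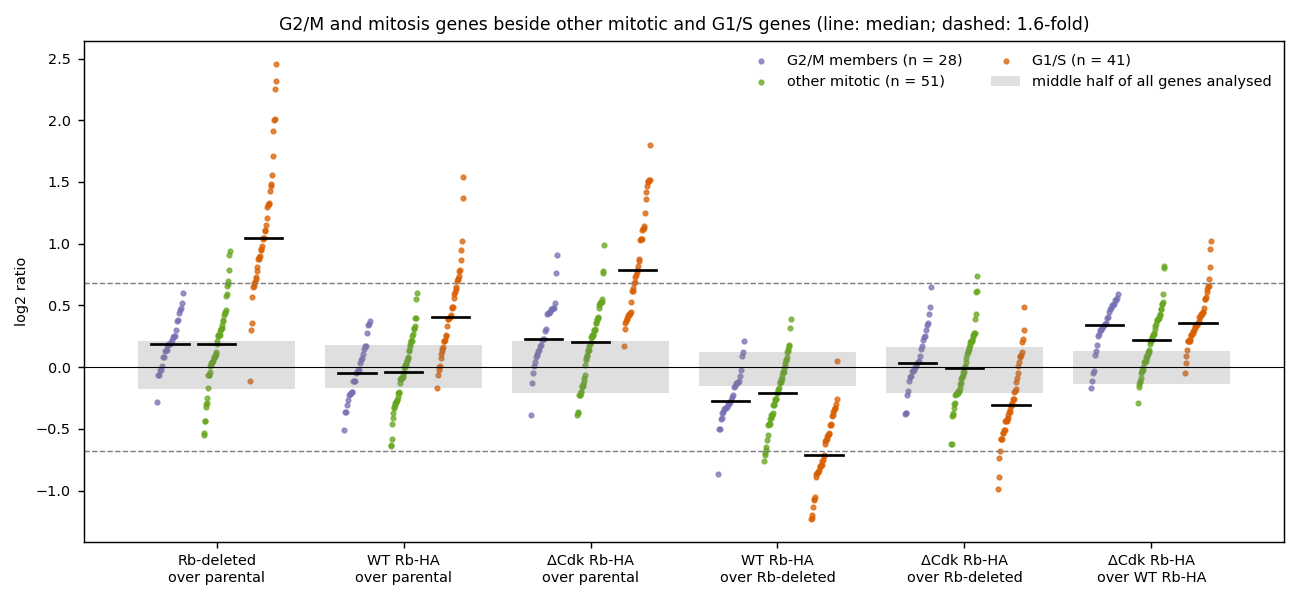
Log2 ratios of detected members, other mitotic genes and G1/S genes in the 6 comparisons, 1 point per gene, with black lines for medians, grey boxes for the middle of all genes analysed and dashed lines at 1.6-fold. Members and other mitotic genes have medians of 0.19 in Rb-deleted against parental MEFs and G1/S genes one of 1.05. For ΔCdk Rb-HA against WT Rb-HA members, other mitotic genes and G1/S genes have medians of 0.34, 0.22 and 0.36.

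Rb-deleted against parental and ΔCdk Rb-HA against WT Rb-HA share no array. Of the 28 members 20 were above 0 in both, 1 was below 0 in both, and 7 differed in sign, 3 of them above 0 only in the first and 4 only in the second. Since 23 of the 28 were above 0 in the first and 24 in the second, most had to be above 0 in both. The count of 20 is thus no sign of agreement gene by gene. Over all genes analysed 2970 of 12616 were above 0 in both. The size of one ratio did not go with the size of the other across members (Pearson r -0.02, Spearman rho 0.06, n = 28 genes on the same 4 arrays). Cenpa, at 0.48 and 0.10, and Tpx2, at -0.28 and 0.59, were among the members that lay apart.

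**Figure D5:**
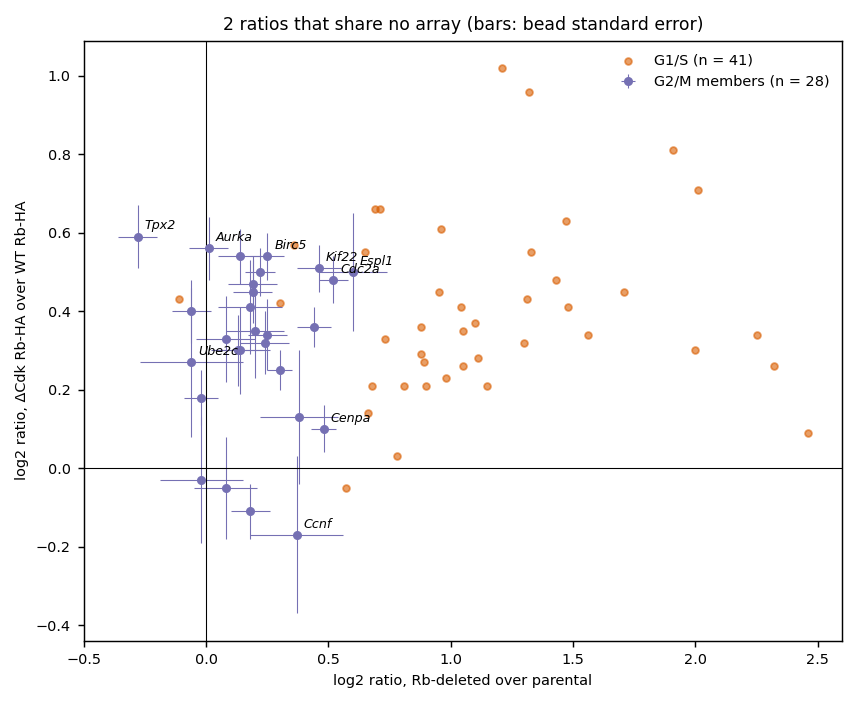
Log2 ratio of Rb-deleted over parental (horizontal) against that of ΔCdk Rb-HA over WT Rb-HA (vertical), which share no array, for members with bars for the bead standard error and for G1/S genes without bars. Of the 28 members 23 lie above 0 on the horizontal axis, 24 on the vertical axis and 20 on both, with no relation between the sizes of their ratios (Pearson r -0.02).

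By promoter letters, the 20 detected members with CHR letters had a median of 0.21 in Rb-deleted against parental MEFs, and the 4 with a window but no CHR letters, Birc5, Ccnb1, Mad2l1 and Nusap1, had 0.11. For ΔCdk Rb-HA against WT Rb-HA the medians were 0.34 and 0.36. Among undetected members 7 of 12 with a window had CHR letters, and among detected members 20 of 24. In ΔCdk Rb-HA against parental MEFs the largest member ratio was that of Birc5, with none of the letters in its window, followed by Cdk1, the member with E2F letters.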

How the data were processed

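Total RNA of 4 MEF cultures was labelled with biotin and hybridized to MouseWG-6 BeadChips, 1 array per group, with groups taken from the labels. The authors deposited, for each of 45281 probes and each array, a bead-averaged intensity without normalization between arrays, a detection p-value, a bead standard error on the same signal scale and the number of beads. Array software and normalization are not given in the sources used here. Symbols of 40 probes had become dates in the table, and 34 were restored through Entrez gene numbers.

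Background was corrected with limma 3.58.1 (R 4.3.3) by normexp from the detection p-values with an offset of 16, followed by quantile normalization over the 4 arrays and log2. Genes needed a probe with a detection p below 0.01 on at least 1 array, and the brightest such probe stood for its gene (12616 genes). Bead standard errors were carried to the log2 scale and added in quadrature for the 2 arrays of a ratio. Bounds were used where a probe was undetected on 1 array of a pair. The calculation was tested on simulated data. Other steps ran in Python 3.11.15 (scipy 1.17.1, pandas 2.3.3, numpy 2.4.6).

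Members, gene lists and sub-groups were chosen with earlier results of these data known. Given in full by rule were members past 1.6-fold in any of the 6 comparisons, the 2 nearest to the filter in Rb-deleted against parental MEFs, and the member of each of the 7 sub-groups with the largest ratio there. For the other mitotic and G1/S lists the rule took the 3 largest and 2 smallest ratios there. Further members named singly, such as Plk1, Aurka, Aurkb, Cdc20, Tpx2 and Kif11, were chosen after their values were seen. Alternatives varied the offset, the background correction, the scaling, the detection filter, the probes per gene, the fold limit and the use of bead error. The number of arrays limits the precision.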

Additional observations from a re-analysis of the deposited data

How the results depend on the processing

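Over 6 other settings of background, scaling, detection and probes, the member medians kept their sign in 5 of the 6 comparisons, and in ΔCdk Rb-HA against Rb-deleted MEFs the median went from 0.04 to 0.00 under median scaling. An offset of 50 took the median of ΔCdk Rb-HA against WT Rb-HA from 0.34 to 0.26. Counts past the fold filter rest on 1 or 2 genes. At 1.5-fold 1 member was higher in Rb-deleted against parental, 1 in ΔCdk Rb-HA against Rb-deleted and 1 in ΔCdk Rb-HA against WT Rb-HA, in place of 0 each. At 2-fold 0 were higher in ΔCdk Rb-HA against parental, in place of 2, and 0 were lower in WT Rb-HA against Rb-deleted, in place of 1. Median scaling left 1 of the 2 higher in ΔCdk Rb-HA against parental. Without background correction, with an offset of 50 and over members detected on all 4 arrays, 0 were lower in WT Rb-HA against Rb-deleted, in place of 1, the member lost being Espl1. The median of all genes lay between -0.067 and 0.017 over all settings. Of 984 values of single members under these alternatives 892 moved by no more than their bead standard error and 92 by more. The detection settings kept the main normalized values, and a mean of probes changes nothing for a gene with 1 detected probe. Many of the 892 therefore could not move, and the count does not measure stability. Sign was checked only for ratios past 1.6-fold, of which 0 changed. Smaller ratios could change sign, such as Aurka in Rb-deleted against parental MEFs, from 0.01 to -0.02 under median scaling. No paired analysis was possible because each group has 1 array. Precision at low signal is limited by background, as 4 of the 28 detected members were not detected on every array and the other 15 members on none.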
